A study of Mus musculus with 4 samples.

Results

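The 4 Dppa genes Dppa2, Dppa3, Dppa4 and Dppa5a were chosen by name from the 41543 gene symbols counted in mouse embryonic stem (ES) cells, and all 4 were expressed highly enough to be among the 16112 symbols tested. They were followed in E14TG2a cells, a mouse ES cell line, grown with fetal calf serum and the cytokine LIF on gelatin-coated plates. The cells labelled KAT6A KO had been edited with CRISPR/Cas9 to remove KAT6A, a histone acetyltransferase of the MYST family, and were set against Control cells of the same line, with 2 mRNA libraries from a strand-specific kit in each group. The sources used here give neither the position of the edit nor the number of clones, and do not say if cultures were separate, so all errors measure only the spread between these libraries, which may be technical. Although the genes are listed by name, they were picked with results of these data in view. Their differences between the groups are therefore given as descriptions, with standard errors and no p-values.

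Dppa stands for developmental pluripotency associated: the genes were grouped because they are active in pluripotent and germ-line cells and silent in most body tissues, and they do not form a single protein family. DPPA2 and DPPA4 are SAP-domain proteins that bind chromatin together, hold the promoters of many silent developmental genes free of DNA methylation and activate Dux, the transcription factor gene that switches ES cells into a rare state resembling the 2-cell embryo. DPPA3, also called STELLA or PGC7, is deposited in the egg, where embryos depend on the mother's supply, and keeps the maintenance methylation factor UHRF1 away from chromatin. In ES cell cultures grown in serum its RNA is known to be confined to a fraction of the cells. DPPA5A, also called ESG1, is a KH-domain RNA-binding protein of ES cells and early embryos.

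The libraries labelled KAT6A KO, called KO-labelled below, held 30185640 and 27494041 counts in replicates 1 and 2, and the Control libraries 35616899 and 37354623. Kat6a itself had 242 and 86.4 CPM, the usual count scaled to library size, in the KO-labelled libraries 1 and 2, against 145 and 143 CPM in Control replicates 1 and 2. Its RNA was thus above both controls in one library labelled KAT6A KO and below both in the other, and a count over the whole gene does not check whether a short edit is present, so every direction below rests on the labels. The defining ES cell markers Pou5f1, Sox2, Nanog, Zfp42, Esrrb and Tdgf1 were all detected, with a summed level of 4409 and 4837 CPM in the KO-labelled libraries and 3673 and 3752 CPM in the controls. Markers of primitive endoderm, the yolk-sac lineage that arises in serum cultures, were all detected in every library, 10 of 10, but summed to 918 and 1738 CPM in the KO-labelled libraries against 3827 and 3667 CPM in the controls.

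Dppa3 stood apart from the other Dppa genes: it was much lower in the KO-labelled libraries, while Dppa5a was higher, Dppa4 slightly higher and Dppa2 about level. Dppa3, the maternal-effect gene, had 51 and 43 counts in the KO-labelled libraries 1 and 2, against 333 and 341 counts in Control replicates 1 and 2. In CPM these were 1.68 and 1.56 in the KO-labelled libraries against 9.37 and 9.21 in the controls. Both libraries labelled KAT6A KO were low and both controls high, with a wide gap between the groups and almost none within them. The means were 1.62 ± 0.0788 CPM in the KO-labelled libraries and 9.29 ± 0.116 CPM in the controls (SD, n = 2 each), and Dppa3 was 5.72-fold lower in the KO-labelled libraries, with a log2 fold change of -2.52 ± 0.18 (SE). The 95% counting interval, which covers counting error only, reached from 1.25 to 2.20 CPM in KO-labelled library 1 and from 8.39 to 10.4 CPM in Control replicate 1. In bulk RNA, fewer cells that express Dppa3 and less Dppa3 RNA per cell cannot be told apart.

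Few genes moved as far. Ordered from the lowest log2 fold change, Dppa3 was number 54 of the 16112 genes tested, and 125 of them (0.776%) had a log2 fold change of -2 or below. The low level was also alike in the KO-labelled libraries 1 and 2, which had 0.180 and 0.168 times the control mean. The summed primitive endoderm markers differed more between these libraries, at 918 and 1738 CPM. Their part in the difference of Dppa3 was not tested. The authors' deposited table gives a log2 fold change of -2.0 with a standard error of 0.23 for Dppa3. The normalized counts of the authors' deposited table, 54.0 and 50.7 in the KO-labelled libraries and 301 and 298 in the controls, have a log2 ratio of means of -2.52.

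Dppa5a, the KH-domain gene, was the most abundant of the 4 in every library and the one with the largest positive difference. It had 23525 and 23081 counts in the KO-labelled libraries 1 and 2, against 20231 and 17966 counts in Control replicates 1 and 2, from deeper libraries. Scaled to CPM, the values were 773 and 839.6 in the KO-labelled libraries and 569 and 485 in the controls. The groups did not overlap, but here the controls also differed from each other. The mean was 806 ± 47.1 CPM in the KO-labelled libraries and 527 ± 59.6 CPM in the controls (SD, n = 2 each), 1.53-fold higher, with a log2 fold change of 0.61 ± 0.11 (SE).

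Dppa4, which encodes one of the SAP-domain partners, had 2037 and 1937 counts in the KO-labelled libraries 1 and 2, against 2037 and 2194 in Control replicates 1 and 2. Its CPM values were 66.9 and 70.5 in the KO-labelled libraries and 57.3 and 59.2 in the controls, so that the groups were close but did not overlap. The log2 fold change was 0.24 ± 0.09 (SE), or 1.18-fold higher. Dppa2, the other partner, had 1255 and 896 counts in the KO-labelled libraries 1 and 2, against 1362 and 1443 counts in Control replicates 1 and 2. Scaled for depth, these were 41.2 and 32.6 CPM in the KO-labelled libraries 1 and 2, against 38.3 and 39.0 CPM in Control replicates 1 and 2. The libraries labelled KAT6A KO lay on either side of the controls, and the log2 fold change of -0.07 ± 0.13 (SE) was smaller than its error.

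**Figure D1:**
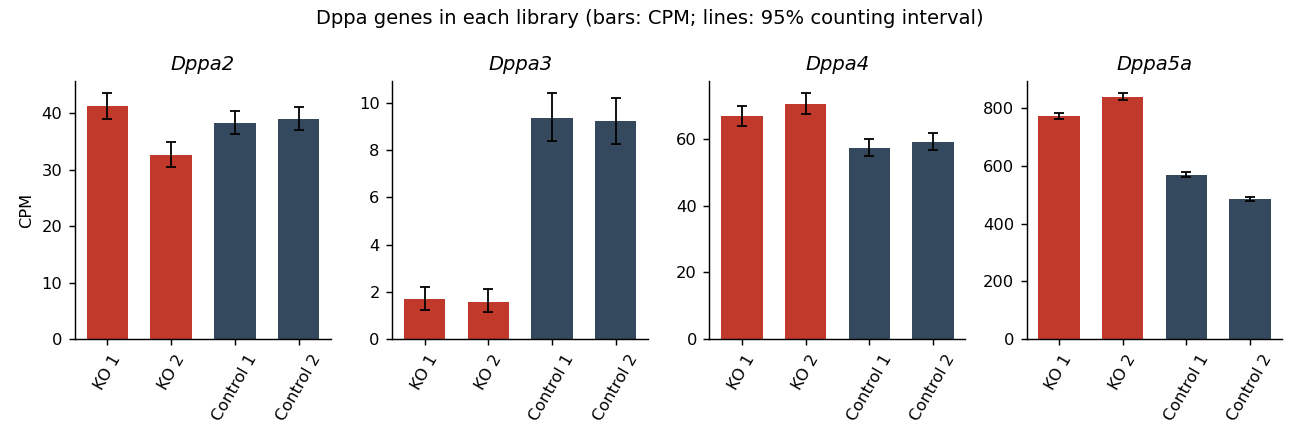
Level of each Dppa gene in each library in CPM, with the KO-labelled libraries in red and the controls in dark blue, and the 95% counting interval as a line. Dppa3 was at 1.68 and 1.56 CPM in the KO-labelled libraries against 9.37 and 9.21 CPM in the controls, Dppa5a and Dppa4 lay above the controls, and Dppa2 overlapped them.

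Of the 4 genes, Dppa3 was called lower and Dppa5a higher at an edgeR adjusted p under 0.05, against 14.3% of all genes tested, and 3 had values that did not overlap between the groups, against 64.3% of all genes tested. These were Dppa4 and Dppa5a above the controls, as in 31.5% of all genes tested, and Dppa3 below them, as in 32.8%. Since results of this contrast were in view when the genes were picked, these counts say nothing further. The call of Dppa5a ended without Control replicate 2, where its log2 fold change was 0.50, against 0.73 without Control replicate 1. The log2 fold change of Dppa4 was 0.27 without KO-labelled library 1 and 0.20 without KO-labelled library 2. That of Dppa2 was -0.25 without KO-labelled library 1 and 0.09 without KO-labelled library 2. In fits without a KO-labelled library the spread came from the control pair alone, and many more of all genes tested were called. In fits without a control it came from the KO-labelled pair alone, and far fewer of all genes tested were called. The loss of a call without a control, as given for genes below, was thus common.

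**Figure D2:**
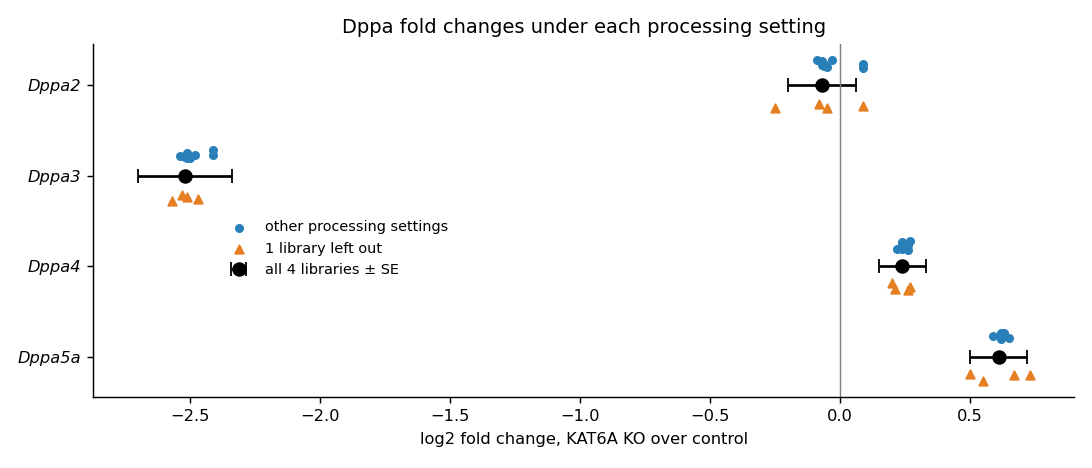
The log2 fold change, KAT6A KO over control, of each Dppa gene with all 4 libraries (black, ± SE), under the other processing settings (blue) and with 1 library left out (orange triangles). Dppa3 stayed between -2.57 and -2.41 and Dppa5a between 0.50 and 0.73, while the values of Dppa2 ran from -0.25 to 0.09 and crossed 0.

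The difference between the KO-labelled libraries was itself clear for Dppa2. Replicate 2 had 0.792 times the level of replicate 1 (95% counting interval, exact binomial, 0.726 to 0.863), which is more than counting error. A ratio at least as far from 1 was seen between these libraries in 34.6% of all genes tested. The control libraries gave a ratio of 1.02 for Dppa2 (0.943 to 1.10). For Dppa4 the ratio of replicate 2 to replicate 1 was 1.05 in the KO-labelled libraries (0.990 to 1.12) and 1.03 in the controls (0.972 to 1.10), and for Dppa3 it was 0.935 (0.608 to 1.43) and 0.982 (0.842 to 1.15), all 4 intervals including 1. Dppa5a, with its many reads, differed beyond counting error in both groups, at 1.09 (1.07 to 1.11) between the KO-labelled libraries and 0.852 (0.835 to 0.869) between the controls.

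Fold changes in these libraries also followed base composition. With the genes split into 5 equal groups by the GC content of the longest transcript, the median log2 fold change ran from -0.22 in the lowest group to 0.23 in the highest. Dppa2 has 43.6% GC and falls in the lowest, Dppa3 has 45.3% and falls in the next, with a median of -0.07, and Dppa4 and Dppa5a have 49.0% and 49.4% and fall in the middle one, with a median of 0.02. With a GC-content offset the log2 fold change of Dppa3 was -2.41 and that of Dppa2 turned to 0.09, while Dppa4 (0.26) and Dppa5a (0.62) moved little.

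Per unit of length, the order of the levels was the same in all 4 libraries: Dppa5a, then Dppa4, Dppa2 and Dppa3. On the TPM scale, counts per kilobase of annotated exon were scaled to the same sum in each library. Dppa5a had 4698 and 5016 TPM in the KO-labelled libraries and 3446 and 2908 TPM in the controls. This put it at the 98.5th percentile of all genes tested in both groups. Only 98.6% of the genes tested were matched to the annotation, and the rest, without a TPM, were counted as not below. Percentiles given here therefore end at 98.6, are somewhat too low, and cannot separate the groups for Dppa5a. Dppa4 followed with 152 and 157 TPM in the KO-labelled libraries and 129 and 132 TPM in the controls. Dppa2 had 63.4 and 49.3 TPM in the KO-labelled libraries and 58.7 and 59.1 TPM in the controls. Dppa3 had 7.07 and 6.48 TPM in the KO-labelled libraries against 39.4 and 38.3 TPM in the controls, and stood at the 36.5th percentile of the genes tested in the KO-labelled libraries and the 67.5th in the controls. The TPM of Dppa2 was 8.97 and 7.60 times that of Dppa3 in the KO-labelled libraries and 1.49 and 1.54 times in the controls. DPPA4 and DPPA2 act as a pair, and the ratio of Dppa4 to Dppa2 on the TPM scale was 2.39 and 3.18 in the KO-labelled libraries 1 and 2, against 2.20 and 2.24 in the controls. These ratios were not corrected for GC content. The log2 fold changes of Dppa4 and Dppa2 were 0.24 and -0.07 in the main fit, and nearer each other, 0.26 and 0.09, with the GC-content offset.

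Reads from copies could blur these levels, since Dppa genes have left many processed pseudogenes in the mouse genome. A search of the annotated transcripts found 11 other genes with a stretch of at least 200 bases that was at least 80% identical to Dppa2, 4 for Dppa3, 4 for Dppa4 and 12 for Dppa5a. The closest were Gm14058 to Dppa4 (99.4% over 532 bases), Gm9788 to Dppa2 (99.3% over 906 bases) and Dppa3-ps to Dppa3 (98.2% over 451 bases). Only 2 of these copies, both of Dppa5a, were among the counted symbols used here. Pigp, a gene of GPI-anchor synthesis with a transcript that carries such a stretch, had 167 and 144 counts in the KO-labelled libraries and 242 and 253 in the controls, and A830035A12Rik had at most 2 counts in a library. Together they came to 0.718% and 0.624% of the Dppa5a counts in the KO-labelled libraries and 1.20% and 1.42% in the controls. The treatment of reads that match several places is unknown from the sources, so the levels of all 4 genes carry that uncertainty. No annotated gene overlaps any of the 4 on either strand.

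The genome neighbourhood of each gene was read next. Dppa3 lies on chromosome 6, at chr6:122626410-122630272 on the plus strand in GRCm38 with GENCODE M21, in a cluster with other genes of pluripotent cells. Its nearest tested neighbours had similar levels in both groups. Gdf3, a TGF-beta family ligand 21.0 kb below it (start to start), had 103 and 88.7 CPM in the KO-labelled libraries and 91.7 and 93.6 CPM in the controls. Nanog, the homeobox gene 81.1 kb above it, had 496 and 415 CPM in the KO-labelled libraries and 478 and 476 CPM in the controls. Neither passed the edgeR test (log2 fold changes of 0.05 and -0.07, adjusted p = 0.76 and 0.69), nor did Apobec1, an RNA-editing deaminase (0.27, adjusted p = 0.39), Slc2a3, a glucose transporter (0.05, adjusted p = 0.74), or Foxj2, a forkhead factor (-0.38, adjusted p = 0.10). Mfap5, a microfibril gene 121 kb below Dppa3, was lower at 1.61 and 1.86 CPM in the KO-labelled libraries against 3.43 and 3.13 CPM in the controls (log2 fold change -0.92 ± 0.21 SE, edgeR adjusted p = 0.037). Its call ended without Control replicate 1 or 2 (edgeR adjusted p = 0.28 and 0.17) and with DESeq2 (adjusted p = 0.063).

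Dppa5a lies on chromosome 9, at chr9:78367052-78368177 on the minus strand, beside Ooep, a gene of the same KH-domain family. Ooep encodes a subunit of the subcortical maternal complex of the egg and starts 9.06 kb from Dppa5a. It rose to 107 and 91.7 CPM in the KO-labelled libraries, against 62.4 and 58.6 CPM in the controls, with edgeR's log2 fold change at 0.71 ± 0.10 (SE, adjusted p = 0.014). Khdc3, also called Filia or ECAT1, is another family member that joins OOEP in that complex and lies 5.27 Mb away on the same chromosome. It had 28.6 and 27.4 CPM in the KO-labelled libraries against 15.4 and 19.4 CPM in the controls (log2 fold change 0.68 ± 0.14 SE, edgeR adjusted p = 0.029). The call of Ooep held without each library in turn, and that of Khdc3 ended when Control replicate 1 was left out (edgeR adjusted p = 0.28) and under the GC-content offset (adjusted p = 0.059). Ooep and Khdc3 are the 2 tested genes of the family besides Dppa5a, since Khdc1a, Khdc1b and Khdc1c had at most 0.0281 CPM in any library. The next tested gene beyond Ooep, the RNA helicase gene Ddx43, went the other way, with 12.1 and 11.1 CPM in the KO-labelled libraries and 18.1 and 16.6 CPM in the controls. Its log2 fold change was -0.58 (edgeR adjusted p = 0.034), a call that ended without Control replicate 1 or 2 (adjusted p = 0.35 and 0.20) and under the GC-content offset (adjusted p = 0.051). On the other side Gsta4, Rn7sk and Fbxo9 did not pass the edgeR test (adjusted p from 0.20 to 0.83), and neither did Cgas beyond Ddx43 (adjusted p = 0.18).

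Dppa4 and Dppa2 are neighbours on chromosome 16, at chr16:48283733-48294237 and chr16:48303908-48319723, both on the plus strand, with starts 20.2 kb apart. Morc1, a germ-line chromatin gene 127 kb above Dppa2, had 135 and 128 CPM in the KO-labelled libraries and 136 and 142 CPM in the controls (log2 fold change -0.08, edgeR adjusted p = 0.51). Dzip3 (-0.13), Cip2a (-0.19), Nectin3 (-0.34) and Plcxd2 (-0.08) did not pass the edgeR test either (adjusted p from 0.13 to 0.73). Phldb2, 2537 kb below Dppa4, had 13.5 and 13.2 CPM in the KO-labelled libraries against 30.7 and 30.3 CPM in the controls (log2 fold change -1.19 ± 0.11 SE, edgeR adjusted p = 0.0061).

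**Figure D3:**
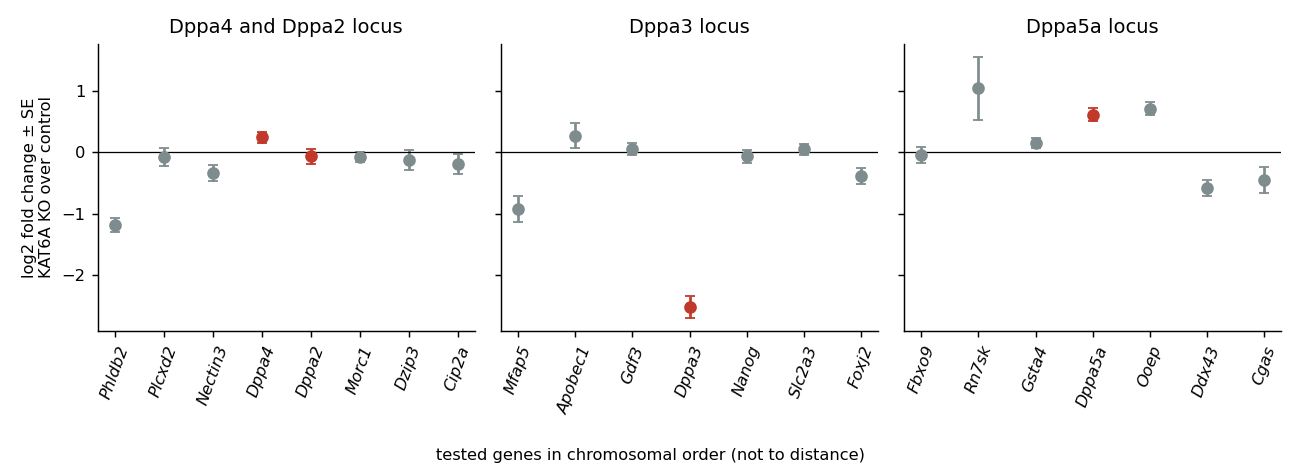
The log2 fold change (± SE), KAT6A KO over control, of the Dppa genes (red) and of the 3 nearest tested genes on either side (grey), in chromosomal order and not to scale. Dppa3 at -2.52 stood below Gdf3 (0.05) and Nanog (-0.07) beside it, while Dppa5a (0.61) and its family member Ooep (0.71) were both above 0.

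The genes that DPPA2 and DPPA4 are known to control were followed from fixed lists, which were written with earlier results of these data known. The 2-cell-like genes downstream of Dux were already known to be higher here and are no independent evidence. Of 22 tested, 15 rose, a share to be read against the 5.76% of all genes tested that were called higher, and the other 7 did not pass. The median log2 fold change was 1.54, against 0.01 over all genes. Duxf3, a Dux copy, rose to 1.15 and 0.837 CPM in the KO-labelled libraries, against 0.225 and 0.162 CPM in the controls, with edgeR's log2 fold change at 2.35 ± 0.40 (SE, adjusted p = 0.018). Duxf3, with 8 and 6 counts in the controls, and some others of the 22 passed the low-count filter only through the KO-labelled libraries. The share called, the median and the call of Duxf3 depend on that filter and are descriptions only. Zscan4c, a marker of the 2-cell-like state, had 4.04 and 4.07 CPM in the KO-labelled libraries against 0.985 and 0.702 CPM in the controls (log2 fold change 2.26, edgeR adjusted p = 0.0085). Usp17le, a deubiquitinase gene of the same state, rose by a log2 fold change of 1.77 (edgeR adjusted p = 0.0065). Dppa2 and Dppa4, the known activators of Dux, were thus at 0.956 and 1.18 times the control level in libraries in which Duxf3 and these genes were several-fold higher. Genes of the Zscan4, Usp17l and Dux families are near-identical copies, so their single counts are uncertain.

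Most other regulators of Dux did not pass the test. Of 20 tested, 2 rose, against 5.76% of all genes tested, and one of them was Nelfa, an elongation factor subunit that activates the 2-cell-like genes, with a log2 fold change of 0.40 (edgeR adjusted p = 0.029). The other 18 did not pass the edgeR test, and the median of the list was 0.12. The call of Nelfa ended when Control replicate 1 or 2 was left out (edgeR adjusted p = 0.37 and 0.22), and neither of the 2 calls held in those fits. More of the 20 were called in each direction without KO-labelled library 1 or 2, as were more of all genes tested. Among those that did not pass were the Dux repressors Smchd1, with 121 and 94.4 CPM in the KO-labelled libraries and 129 and 125 CPM in the controls, Trim28 (log2 fold change 0.28) and Chaf1a (0.15).

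Reported targets of DPPA2 and DPPA4 outside the 2-cell-like state showed no common direction. Of 7 tested, Nptx1, a pentraxin gene on chromosome 11, was lower at 1.61 and 2.07 CPM in the KO-labelled libraries against 4.61 and 3.48 CPM in the controls (log2 fold change -1.14, edgeR adjusted p = 0.033), where 8.57% of all genes tested were called lower. On chromosome 11, 536 of the 1322 genes tested were called lower, and the call of Nptx1 ended without Control replicate 1 (edgeR adjusted p = 0.21). With KO-labelled library 2 left out, more of the 7 were called in each direction, as were more of all genes tested. Syce1, a synaptonemal complex gene (log2 fold change 0.08), and Mael, a germ-line piRNA gene (-0.25), did not pass, and the median of the 7 was 0.08.

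The pathway on which DPPA3 acts was read from 14 genes of DNA methylation. Tet1, which encodes an enzyme that oxidises methylcytosine, rose to 771 and 696 CPM in the KO-labelled libraries, against 555 and 540 CPM in the controls (log2 fold change 0.42 ± 0.09 SE, edgeR adjusted p = 0.030), and the other 13 did not pass, where 5.76% of all genes tested were called higher. The call of Tet1 ended without Control replicate 1 or 2 (edgeR adjusted p = 0.26 and 0.30). Calls in each direction were more numerous among the 14 genes when KO-labelled library 1 or 2 was left out, as they were over all genes tested. Uhrf1, the factor that DPPA3 displaces, had 318 and 448 CPM in the KO-labelled libraries and 268 and 289.9 CPM in the controls, with the groups not overlapping and a log2 fold change of 0.46 ± 0.16 (SE) that did not pass (adjusted p = 0.10). Dnmt1, the maintenance methyltransferase, had a log2 fold change of 0.24 (adjusted p = 0.11), and the list median was 0.10.

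Other maternal-effect genes moved in both directions. Of 19 tested, 3 rose and 2 fell, with a median log2 fold change of 0.11, where 5.76% of all genes tested were called higher and 8.57% lower. Besides Ooep and Khdc3, Basp1 rose by 0.40 (edgeR adjusted p = 0.029). Nlrp4f, an egg NLR-family gene, fell to 25.3 and 23.0 CPM in the KO-labelled libraries, against 44.2 and 44.6 CPM in the controls (log2 fold change -0.88 ± 0.10 SE, edgeR adjusted p = 0.0094), and Gdf9, an oocyte growth factor on chromosome 11, fell by 1.17 on the log2 scale (edgeR adjusted p = 0.048). Among the 1322 genes tested on chromosome 11, 536 were called lower. The calls of Basp1 and Gdf9 ended when Control replicate 1 (edgeR adjusted p = 0.36 and 0.15) or 2 was left out (adjusted p = 0.24 and 0.080), that of Basp1 also under the GC-content offset (adjusted p = 0.059) and that of Gdf9 also with 3 other settings (adjusted p from 0.050 to 0.052). Among the 19 genes more were called when KO-labelled library 1 or 2 was left out, and the same held over all genes tested. Egg genes such as Zar1, Nlrp5 and Oosp1 had at most 5 counts in a library and were not tested.

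Dppa3 is also a marker of primordial germ cells, and 15 genes of those cells were tested. Prdm1, which encodes the germ-cell specifier BLIMP1, fell to 13.9 and 15.8 CPM in the KO-labelled libraries, against 26.6 and 24.0 CPM in the controls (log2 fold change -0.77 ± 0.13 SE, edgeR adjusted p = 0.017). Tex19.1, a germ-line gene on chromosome 11, also fell, by 0.77 on the log2 scale (adjusted p = 0.0077), and Dazl, an RNA-binding germ-line gene, by 1.09 (adjusted p = 0.028). The interferon-induced membrane protein genes Ifitm3 (log2 fold change 1.41, edgeR adjusted p = 0.0050) and Ifitm1 (0.64, adjusted p = 0.031) rose. In all, 2 of the 15 rose and 3 fell, where 5.76% of all genes tested were called higher and 8.57% lower. On chromosome 11, which holds Tex19.1, 536 of the 1322 genes tested were called lower. The remaining 10 did not pass, among them Tfap2c (-0.04), Prdm14 (-0.01) and Kit (-0.21), and the list median was -0.04. Without Control replicate 1 the calls of Prdm1 and Ifitm1 ended (edgeR adjusted p = 0.11 and 0.079), and with no low-count filter that of Dazl did (adjusted p = 0.055). More of the 15 genes were called when KO-labelled library 1 or 2 was left out, as were more of all genes tested.

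All 4 Dppa genes belong to the first set of candidate factors screened for reprogramming fibroblasts into pluripotent cells, and the remaining 20 genes of that set were tested beside them. Of these, 4 rose and 3 fell, against 5.76% and 8.57% of all genes tested, with a median log2 fold change of 0.04. The rises were Khdc3, the zinc finger gene Sall4 (0.50, edgeR adjusted p = 0.017), the Ras-like gene Eras (0.52, adjusted p = 0.045) and the AKT co-activator gene Tcl1 (0.42, adjusted p = 0.033). The falls were Tdrd12, a piRNA-pathway gene (-0.81, edgeR adjusted p = 0.021), and Stat3 (-0.55, adjusted p = 0.013) and Grb2 (-0.40, adjusted p = 0.034), both signalling genes on chromosome 11. For Stat3 and Grb2 the share to compare is that of chromosome 11, where 536 of the 1322 genes tested were called lower. Eras, Tcl1 and Grb2 were named after their values were seen. Of these calls, that of Tdrd12 held without each library in turn. Without Control replicate 1 or 2 those of Sall4 (edgeR adjusted p = 0.22 and 0.11), Eras (0.47 and 0.10), Tcl1 (0.39 and 0.15), Stat3 (0.067 and 0.076) and Grb2 (0.21 and 0.31) ended, and that of Eras also under the GC-content offset (adjusted p = 0.061). Leaving out KO-labelled library 1 or 2 gave more calls in each direction among the 20 genes, as it did over all genes tested.

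Genes of naive and core pluripotency were read in the same libraries. Of 20 tested, 5 rose, against 5.76% of all genes tested, and 15 did not pass, with a median log2 fold change of 0.22 and with 18 values above 0. Esrrb, an orphan nuclear receptor, rose to 1435 and 1459.5 CPM in the KO-labelled libraries, against 977 and 979.5 CPM in the controls (log2 fold change 0.56 ± 0.08 SE, edgeR adjusted p = 0.013). Sall4 was given above, and Tfcp2l1 (0.60, edgeR adjusted p = 0.032), Tbx3 (0.46, adjusted p = 0.019) and Tcl1 were the others, named after their values were seen. The calls of Esrrb and Tbx3 ended when Control replicate 1 (edgeR adjusted p = 0.12 and 0.19) or 2 was left out (adjusted p = 0.11 and 0.22), and that of Tfcp2l1 without Control replicate 2 (adjusted p = 0.12). Fewer of the 20 were called without Control replicate 1 or 2, and more without KO-labelled library 1 or 2. Calls over all genes tested changed in the same way in these fits. Markers of other lineages differed between the groups in both directions. The primitive endoderm markers summed to 918 and 1738 CPM in the KO-labelled libraries against 3827 and 3667 CPM in the controls. The 10 trophoblast markers, all detected, summed to 100.2 and 155 CPM in the KO-labelled libraries against 267 and 270.1 CPM in the controls. Among them Krt18 and Krt8, both called lower, had the highest control means, 109.7 and 74.9 CPM. Hand1, Plac1 and Gata3 were also called lower (log2 fold changes of -3.15, -4.53 and -1.05), from control means of 9.09, 1.28 and 4.26 CPM. Cdx2 and Elf5 had at most 15 counts in a library, and Eomes, Tfap2c and Ascl2 were not called. Neuroectoderm sums were higher, at 104 and 93.5 CPM in the KO-labelled libraries against 70.6 and 78.7 CPM in the controls. Most of each sum was Tubb3, with 91.1 and 79.0 CPM in the KO-labelled libraries against 50.2 and 58.0 CPM in the controls. Tubb3 and Sox1 were called higher by edgeR, but Nes was called lower (log2 fold change -0.96). Pax6 was not called, and Neurog2 and Zic1 were not tested, so the sums do not stand for the whole list. Mesoderm sums overlapped between the groups. The part of these lineage markers in the values of the pluripotency genes was not tested. Of 9 genes of primed or formative cells none was called by edgeR. DESeq2 and limma-voom called 1 each as higher, and over all genes they called 1132 and 967 higher. At an unadjusted edgeR p under 0.05, 3 were higher, a level for which no share over all genes was taken. That count therefore cannot be read as a result about these genes. Some of the 9 were called without KO-labelled library 1 or 2, fits in which many more of all genes tested were called.

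**Figure D4:**
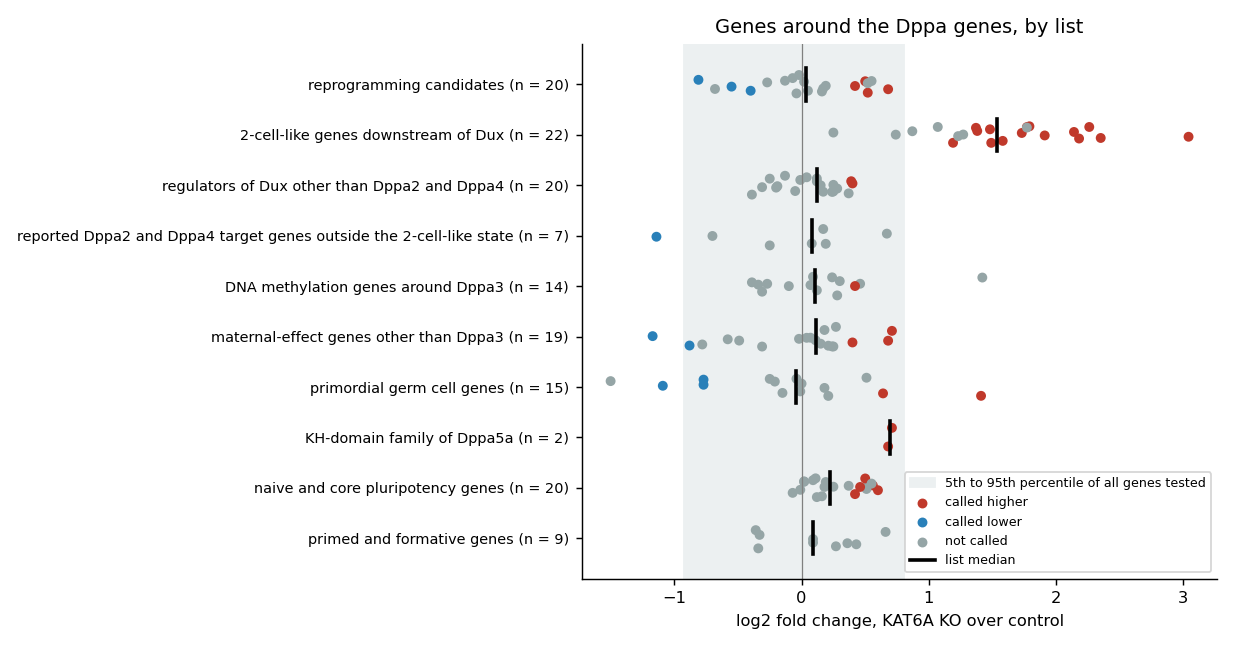
The log2 fold change, KAT6A KO over control, of each tested gene in the lists around the Dppa genes, without the Dppa genes themselves, coloured by call, with the list median as a black bar and the 5th to 95th percentile of all genes tested in grey. The 2-cell-like list stood high, with a median of 1.54, and the medians of the DNA methylation (0.10), maternal-effect (0.11) and germ cell (-0.04) lists lay close to 0.

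The genes whose levels over the 4 libraries were most like those of each Dppa gene were taken from 12704 genes by the distance between centred log2 CPM values, a description that does not speak to shared function. For Dppa3 these were Nppb (distance 0.224), Timp2 on chromosome 11 (0.265) and Zfp9 (0.273), of which Nppb had 0.953 and 0.873 CPM in the KO-labelled libraries against 4.73 and 4.45 CPM in the controls. For Dppa5a they were Frg2f1 (0.0154), Rims4 (0.0429) and Insm1 (0.0600), for Dppa4 Ppp1cc (0.0110), Idh2 (0.0152) and Tyk2 (0.0174), and for Dppa2 Herc3 (0.0155), Stag1 (0.0175) and Sort1 (0.0208). The distance between Dppa2 and Dppa4 themselves was 0.428, so neither was among the genes closest to the other.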

How the data were processed

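The authors deposited whole-number read counts per gene symbol for each library; featureCounts and DESeq2 are named without versions per the submitters' processing notes. The aligner, genome build, gene models and strand setting of the counting are not stated there. The authors also deposited normalized counts (signal, each library divided by 1 factor) and their own comparison with log2 fold changes, a Wald statistic (score) and p-values, identified from column order because that table has no header. Counts were analysed with edgeR 4.0.16 in R 4.3.3: filterByExpr, TMM, robust quasi-likelihood test, Benjamini-Hochberg adjustment over 16112 genes, threshold 0.05, group only in the model. The standard error was the log2 fold change divided by the root of F. DESeq2 1.42.0 and limma 3.58.1 were alternatives. Symbols were matched to GENCODE M21 on GRCm38 (97.3%), and copies were searched with BLAST+ 2.17.0. Where a library was left out, the single library remaining was taken to vary as the pair did. Named genes were the Dppa genes, Kat6a, up to 2 called genes per direction and list (or the most abundant), 3 neighbours per side and 3 most alike; 2 genes that this rule or the counts would name are not reported here. The members and lists were chosen with earlier results of these data known. The procedure was tested on simulated data.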

Additional observations from a re-analysis of the deposited data

How the results depend on the processing

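Over 10 other settings the log2 fold change was -2.54 to -2.41 for Dppa3, 0.59 to 0.65 for Dppa5a, 0.22 to 0.27 for Dppa4 and -0.09 to 0.09 for Dppa2, and with 1 library left out it was -2.57 to -2.47, 0.50 to 0.73, 0.20 to 0.27 and -0.25 to 0.09. The value of Dppa3 moved by more than its replicate spread with the GC-content offset, with or without the replicate block (-2.41 in both); the cause was not tested. Replicate numbers do not pair the libraries by any label, and the correlation of same-numbered deviations was 0.0945 across genes. With the replicate block 1613 genes were higher and 2147 lower, against 928 and 1381 without it, and the calls of the Dppa genes did not change. With 1 library left out, 254 to 4020 genes were higher and 648 to 4400 lower. Calls rose without a KO-labelled library, where the spread came from the control pair alone. Calls fell without a control, where the spread came from the KO-labelled pair alone. In the fits with 1 library left out, the Dppa genes called higher were 0 to 2 and those called lower 1 to 2. With DESeq2, and also with the replicate block, 9 naive and core pluripotency genes were higher, against 5, and the block gave 4 higher and 2 lower DNA methylation genes, against 1 and 0. With 2 libraries a group and 43 to 51 counts of Dppa3 in the KO-labelled libraries, its level there is known less precisely than in the controls.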

Other observations

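Dppa1, a further gene of the same naming series on chromosome 11, had too few counts to be tested, with 1 and 1 in the KO-labelled libraries against 13 and 10 in the controls. Per count sequenced it was 9.18 times as high in the controls (95% counting interval, exact binomial, 2.27 to 80.4).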
